A study of Mus musculus with 22 samples.

Results

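The 39 genes described here encode the protein-folding machinery of the endoplasmic reticulum (ER) and the stress response that controls it, in mRNA from the hippocampal CA1 region of mice. They were chosen by name from the 23361 genes of the expression matrix, as genes of known ER folding, degradation, translocation or stress-sensing function. All 39 passed the filter on low values. The choice was made with earlier results of these data known. The authors had already reported Hspa5, Calr, Pdia4 and Pdia6 as raised by CR in these mice, so calls of these genes are not independent support. Of these, 34 are ER folding, degradation, translocon and sensor genes, and 5 (Atf4, Ddit3, Trib3, Chac1 and Ppp1r15a) are targets of the PERK branch of the stress response, which are reported separately. The 22 female mice were of a Swiss Webster x DBA/C57BL6 F1 background, with 1 library per mouse, and were fed ad libitum (AL, 5 mice at 5 months and 6 at 15 months) or kept on calorie restriction (CR, 5 mice at 5 months and 6 at 15 months). Restriction was made in carbohydrates alone, began in young adulthood, and was set each week by what AL mice had eaten. The CR mice at 15 months had therefore been restricted for longer than those at 5 months. Age and duration of restriction cannot be told apart in CR mice. CR mice received their food in the morning, and tissue was taken in mid-afternoon after perfusion. The labels give no sequencing run or litter for any mouse. A part of these mice also served as controls in another study, according to the methods.

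Secreted and membrane proteins fold in the lumen of the ER with the help of chaperones such as BiP (the product of Hspa5), of lectin chaperones that hold sugar-bearing proteins, and of enzymes that form disulfide bonds. When unfolded proteins accumulate, the sensors IRE1 (Ern1), ATF6 and PERK (Eif2ak3) start the unfolded protein response: IRE1 splices Xbp1 mRNA, and XBP1 and cleaved ATF6 activate chaperone and degradation genes, whereas PERK slows translation and raises ATF4 with its targets. Neurons depend on this machinery for the receptors, channels and secreted factors they make. FPKM (fragments per kilobase of exon, scaled to the mapped fragments of a library) are corrected for transcript length and do not separate spliced from unspliced Xbp1.

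XBP1 and ATF6 act through the ER stress response element (ERSE), a pair of short boxes, CCAAT and CCACG, set 9 bases apart. The RefSeq promoter windows (GRCm38.p6, 250 bases before to 50 bases after a start site) of 34 members were searched for it on both strands. An ERSE was present in 10 of them (29.41%), all among the 29 folding, degradation and sensor genes with a window, and in 0 of the 5 PERK branch targets. Counted by gene in the same way, 20 of the 12056 tested genes with a window held it (0.1659%), the members included, and counted by window 39 of 32851 did (0.1187%). The sequences below are those of the chaperone and folding genes that the later comparisons turn on, read 5′ to 3′ on the strand of the gene, with the paired boxes of the element in capitals. Where the element lies on the opposite strand, the same boxes read CGTGG and ATTGG.
Hspa5, chr2:34772021-34772047, + strand: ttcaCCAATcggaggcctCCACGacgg
Hsp90b1, chr10:86705634-86705660, - strand: aagcCCAATcgcaaggagCCACGcttc
Hsp90b1, chr10:86705529-86705555, - strand: agtgCGTGGtgaggcacgATTGGtgag
Calr, chr8:84847071-84847097, - strand: aacgCGTGGtcgaccctcATTGGccca
Dnajc3, chr14:118937823-118937849, + strand: acaaCCAATcagcgccaaCCACGaccc
Creld2, chr15:88819516-88819542, + strand: ttctCGTGGcgagcctcaATTGGtcca
Pdia6, chr12:17266487-17266513, + strand: gagaCCAATgaaaggcggCCACGgcgt

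The element of Hspa5 spans bases -65 to -47 before the start site. The stretch of 150 bases before that start, chr2:34771940-34772089, shows the element in its setting, again with the boxes in capitals.
Hspa5: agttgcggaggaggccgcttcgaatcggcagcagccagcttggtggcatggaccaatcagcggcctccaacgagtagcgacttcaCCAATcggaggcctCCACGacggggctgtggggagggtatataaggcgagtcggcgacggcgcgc
The other members with an ERSE were Canx, Ero1lb, Syvn1 and Derl3. A shorter form of the element, ERSE-II (ATTGG and CCACG with 1 base between), was found in Dnajb11 and Herpud1, 2 of 34 members. Over all, 8 of 12056 tested genes and 12 of 32851 windows held it. The core of the UPR element, TGACGTG, was found in Hspa5 and in 1 of the windows of Txndc5, 2 of 34 members (5.882%). It was in 3.061% of tested genes with a window and in 2.012% of all windows. The ATF4 C/EBP element (TGATG and AA with 1 base between) was found in Txndc5, Herpud1, Trib3 and Chac1, 4 of 34 members (11.76%). It was in 2.953% of tested genes with a window and in 3.969% of all windows. No window was given for Hyou1, Manf, Derl1, Sec61a1 and Atf6. In 27 of 37 member windows, the bases after the start site matched the opening part of a GENCODE transcript of the gene. The windows of Dnajc3, Pdia4, Ero1lb and Derl3 were among those without such a match. These matches are descriptions of the letters and were not tested as binding sites.

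**Figure D1:**
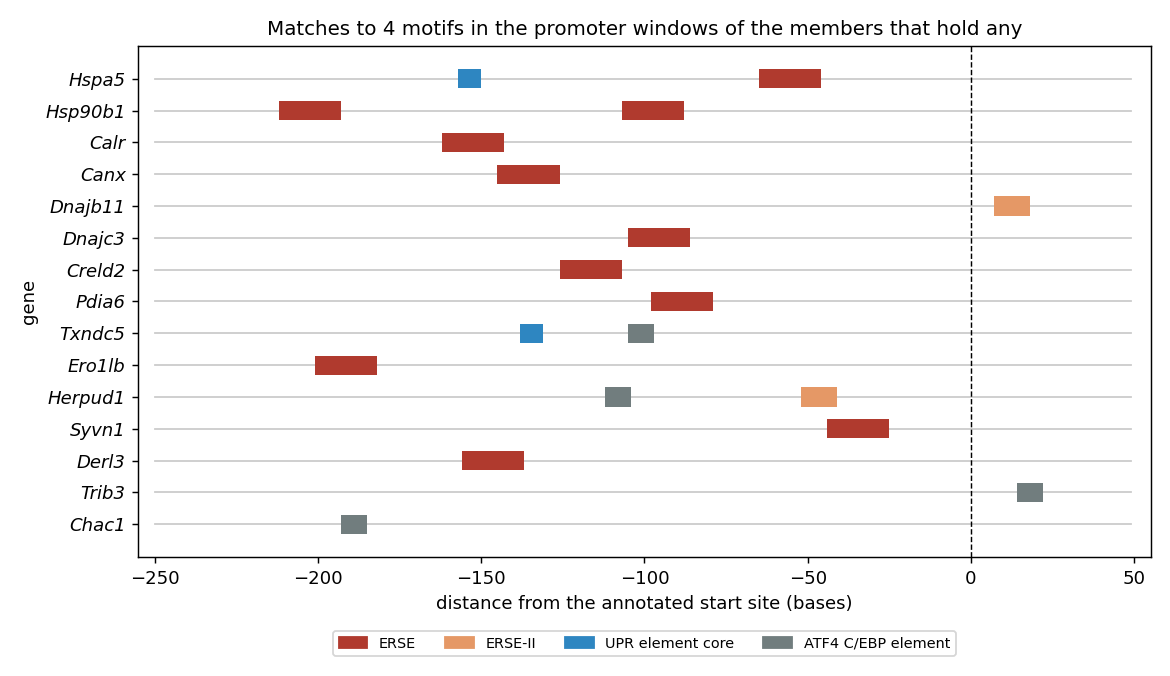
Matches to 4 motifs in the promoter windows of the 15 members that hold any, by distance in bases from the annotated start site (dashed line); Txndc5 has several start sites and its matches belong to different windows. The ERSE bars of Hspa5, Hsp90b1, Calr, Canx, Dnajc3, Creld2, Pdia6, Ero1lb, Syvn1 and Derl3 all lie before the start site.

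The effect of CR was examined first. The genes that rose under CR were 3 of 5 general ER chaperones, 4 of 6 BiP partners and secreted ER factors, and 3 of 9 isomerases and oxidases. With both ages averaged, 10 of the 34 folding, degradation and sensor genes rose and 0 fell (limma on log2(FPKM + 0.1), Benjamini-Hochberg adjusted p under 0.05 over 16978 genes), whereas 0.389% of all tested genes were called in either direction and 0.23% were called higher. These 10 were Hspa5, Pdia4, Manf, Pdia6, Hyou1, Calr, Sdf2l1, Pdia3, Dnajb11 and Dnajc3, and they made up 10 of the 39 genes called higher under CR in the whole matrix. The median log2 fold change of the 34 genes was 0.12, beside 0.00 over all tested genes. Of the 5 PERK branch targets, 0 were called, and 1 (Chac1) was below an unadjusted p of 0.05, on the lower side.

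At 15 months, 8 of the 34 genes rose and 0 fell under CR, against 0.742% of all tested genes called in either direction and 0.33% called higher, and the 8 were all among the 10 of the averaged contrast. The balance of calls over all genes at 15 months depended on scaling, with 56 higher and 70 lower as deposited, 87 and 51 with libraries at a common median, 52 and 25 after quantile normalization, and 33 and 184 without the microRNA and small nucleolar RNA rows. Under these scalings 9, 7 and 7 of the 34 genes were called, all higher. At 15 months the count of 8 dropped to 1 when AL replicate 0, AL replicate 4 or CR replicate 3 was omitted. Calls over all genes dropped from 126 to 15 in each of these omissions. The count was 12 when CR replicate 0 was omitted, with 732 calls over all genes. Hspa5 was called in every one of these omissions. When the 15-month groups were fitted alone, with the spread taken from their 12 libraries only, 0 of the 34 genes and 0 of all genes were called by limma. Hspa5 then had a log2 fold change of 0.66 (± 0.091 SE, limma adjusted p = 0.0781). In 8 members every CR library lay above every AL library at 15 months, as did 0.424% of all genes. At 5 months no member was called by limma, and neither was any other gene (0.0%). With an unadjusted p below 0.05, 14 of the 34 genes were higher and 0 lower at 5 months, against 4.65% of all tested genes in either direction and 2.49% on the higher side. No member had all CR libraries above all AL libraries at 5 months (0.53% of all genes did). The CR comparisons at the 2 ages share no libraries. The fitted difference was above 0 at both ages in 27 of the 39 members, and in 26.4% of all tested genes. The interaction of age and diet was called in no member and in no other gene (0.0%), and 0 of the 39 members had an unadjusted p under 0.05 for it, so a difference between the CR effects at 5 and 15 months was not detected.

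**Figure D2:**
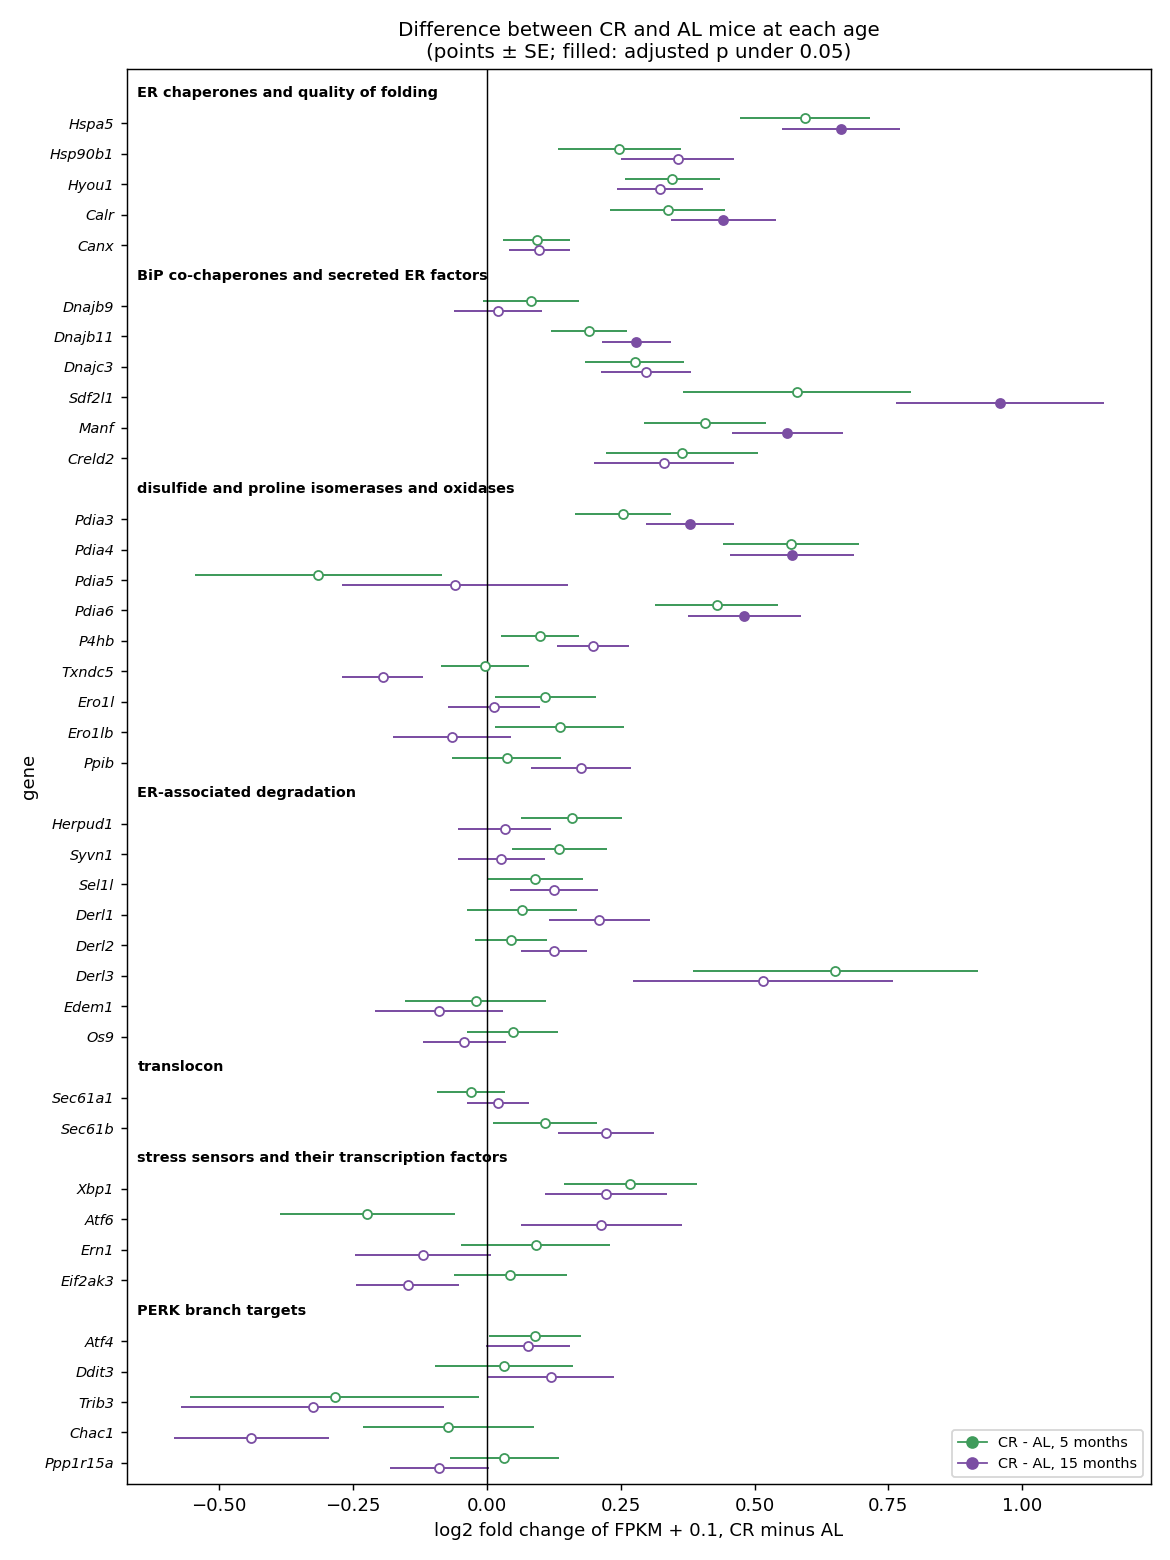
Fitted log2 fold change of FPKM + 0.1 between CR and AL mice at 5 months (green) and 15 months (purple) for the 39 members in order of role, with SE bars; filled points have an adjusted p under 0.05. The points of the called chaperones and isomerases lie right of 0 at both ages, from 0.19 (Dnajb11 at 5 months) to 0.96 (Sdf2l1 at 15 months), and all 8 filled points are at 15 months.

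Among the general ER chaperones, 3 of 5 rose under CR in the averaged contrast. Hspa5 (chr2:34772090-34776529), which encodes BiP, the central Hsp70 chaperone of the ER lumen, had 97.6, 108, 117, 119.6 and 150.1 FPKM in the AL mice and 138, 160.1, 192, 198 and 206.5 FPKM in the CR mice at 5 months. At 15 months it ranged from 82.9 to 113 FPKM (median 101) in AL mice and from 143 to 186 FPKM (median 155) in CR mice. Thus 4 of 5 CR libraries at 5 months were above the highest AL library, and the groups at 15 months did not overlap. The averaged log2 fold change was 0.63 (limma adjusted p = 0.00245, SE 0.082), a 1.54-fold difference, and no other gene in the matrix had a smaller p in this contrast. The exact permutation test of the averaged difference, with diet relabelled within each age, gave p = 1.72e-05. At 15 months the log2 fold change of Hspa5 was 0.66 (± 0.11 SE, limma adjusted p = 0.0137), and at 5 months it was 0.59 (± 0.12 SE, limma adjusted p = 0.361).

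Calr (chr8:84842088-84846931) encodes calreticulin, a soluble lectin chaperone that also binds calcium. It had 172, 186.5, 189.5, 192 and 196 FPKM in AL mice and 191, 212, 243, 271 and 278 FPKM in CR mice at 5 months. At 15 months its levels ranged from 133 to 174 FPKM (median 155) in AL mice and from 169 to 256 FPKM (median 214) in CR mice. The lowest CR library lay within the AL range at both ages, and the others lay above it. Its averaged log2 fold change was 0.39 (limma adjusted p = 0.0181, SE 0.073).

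Hyou1 (chr9:44379490-44392369), a large Hsp70-like protein that exchanges the nucleotide of BiP, had 27.65, 28.5, 29.1, 29.5 and 34.1 FPKM in AL mice and 31.1, 33.4, 41.2, 41.9 and 42.9 FPKM in CR mice at 5 months. At 15 months it ranged from 26.0 to 32.8 FPKM in AL mice and from 33.9 to 40.5 FPKM in CR mice, without overlap. Its averaged log2 fold change was 0.33 (limma adjusted p = 0.0139, SE 0.06), but it passed at neither age alone (limma adjusted p = 0.0602 at 15 months). Hsp90b1, the ER member of the Hsp90 family (GRP94), had a log2 fold change of 0.30 (± 0.078 SE) and did not pass (limma adjusted p = 0.107), with 107 to 205 FPKM over all libraries. Canx, the membrane-bound partner of calreticulin, differed least in this group, with a log2 fold change of 0.10 (± 0.042 SE, limma adjusted p = 0.372) and levels from 79.3 to 103 FPKM.

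**Figure D3:**
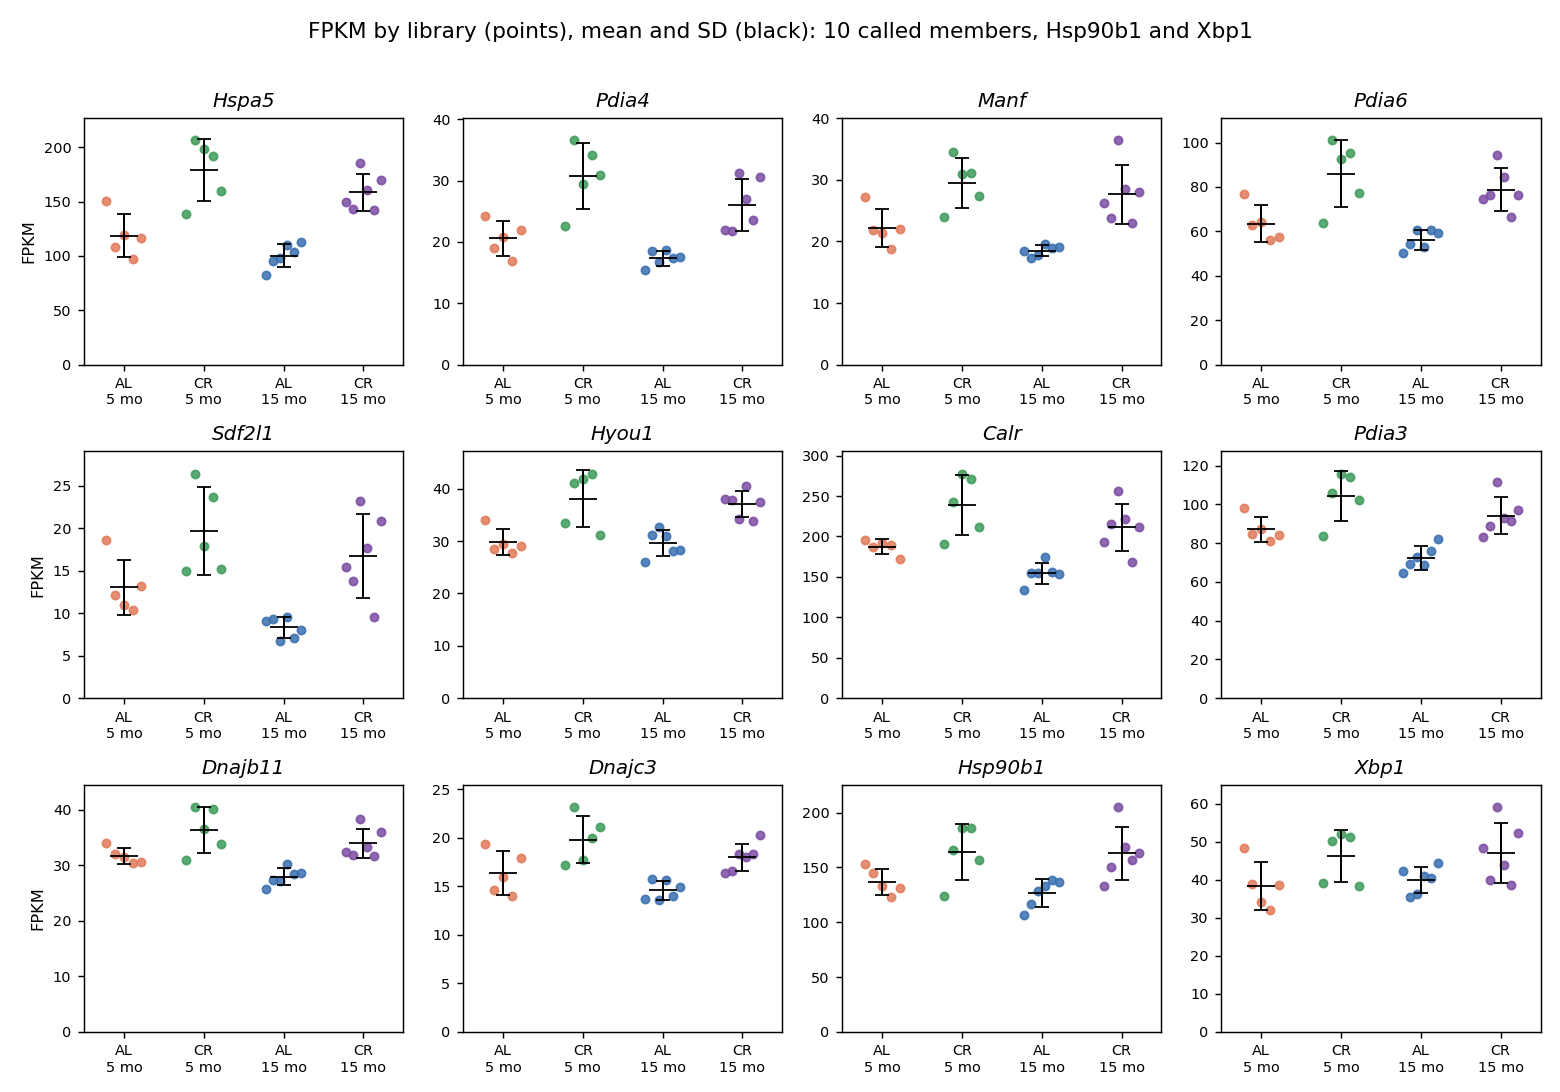
FPKM in each library (points) with the mean and SD (black) for the 10 members called in the averaged CR contrast and for Hsp90b1 and Xbp1, by diet at 5 months (5 mice per diet) and 15 months (6 mice per diet). At 15 months the CR points of Hspa5 (143 to 186 FPKM) lie above all AL points (82.9 to 113 FPKM), and at 5 months AL replicate 0 and CR replicate 0 meet in most panels.

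Of the co-chaperones and secreted ER factors, 4 of 6 rose in the averaged contrast. Sdf2l1, a small lumenal protein that works with BiP and its J-domain partners, had the largest fitted difference of the 39 members. Its levels (chr16:17130138-17132383) were 10.3, 10.98, 12.1, 13.2 and 18.6 FPKM in AL mice and 15.0, 15.1, 17.9, 23.65 and 26.4 FPKM in CR mice at 5 months. At 15 months they ranged from 6.77 to 9.59 FPKM (median 8.59) in AL mice and from 9.56 to 23.2 FPKM (median 16.6) in CR mice. The lowest CR library at 15 months thus met the AL range, and the other 5 were above it. The averaged log2 fold change was 0.77 (limma adjusted p = 0.0181, SE 0.14).

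Manf (chr9:106888753-106891938) encodes an ER-resident protein that is secreted under stress and that has neurotrophic activity. It had 18.7, 21.3, 21.9, 22.04 and 27.2 FPKM in AL mice and 23.9, 27.3, 30.9, 31.1 and 34.5 FPKM in CR mice at 5 months. At 15 months it ranged from 17.3 to 19.5 FPKM (median 18.7) in AL mice and from 23.0 to 36.4 FPKM (median 27.1) in CR mice, without overlap. The averaged log2 fold change was 0.48 (limma adjusted p = 0.00596, SE 0.077; exact permutation p = 1.72e-05).

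Dnajb11 and Dnajc3 are J-domain proteins that pass unfolded clients to BiP, and Dnajc3 also inhibits PERK. Dnajb11 (chr16:22857845-22879634) had 30.4, 30.7, 31.5, 32.0 and 34.0 FPKM in AL mice and 30.9, 33.9, 36.5, 40.1 and 40.5 FPKM in CR mice at 5 months. At 15 months Dnajb11 was at 25.8 to 30.2 FPKM in AL mice and 31.65 to 38.3 FPKM in CR mice, and its averaged log2 fold change was 0.23 (limma adjusted p = 0.0349, SE 0.048). Dnajc3 (chr14:118937932-118981702) had 14.02, 14.6, 15.99, 17.9 and 19.3 FPKM in AL mice and 17.1, 17.7, 20.0, 21.1 and 23.1 FPKM in CR mice at 5 months. At 15 months Dnajc3 was at 13.6 to 15.7 FPKM in AL mice and 16.4 to 20.2 FPKM in CR mice, and its averaged log2 fold change was 0.29 (limma adjusted p = 0.0441, SE 0.062). For both genes the groups did not overlap at 15 months and did overlap at 5 months. These are the least stable of the 10 calls, since Dnajb11 passed in 19 and Dnajc3 in 9 of 34 alternative settings. Creld2, a secreted ER stress-inducible protein, had a log2 fold change of 0.35 (± 0.097 SE) that did not pass (limma adjusted p = 0.135). Dnajb9, a J-domain protein that is itself a target of XBP1, had 22.4 to 31.1 FPKM and a log2 fold change of 0.05 (± 0.061 SE, limma adjusted p = 0.782).

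Among the 9 disulfide and proline isomerases and oxidases, Pdia3, Pdia4 and Pdia6 rose under CR. Pdia4 (chr6:47796141-47813512), a lumenal disulfide isomerase, had 16.9, 19.04, 20.8, 22.01 and 24.2 FPKM in AL mice and 22.5, 29.4, 31.0, 34.1 and 36.6 FPKM in CR mice at 5 months. Its range at 15 months was 15.4 to 18.6 FPKM in AL mice and 21.8 to 31.3 FPKM in CR mice. The CR difference was of nearly the same size at both ages, with log2 fold changes of 0.568 at 5 months and 0.570 at 15 months, and the averaged value was 0.57 (± 0.086 SE, limma adjusted p = 0.00344). Pdia6 (chr12:17266589-17284785), which also restrains IRE1, had 56.0, 57.3, 62.8, 64.1 and 77.0 FPKM in AL mice and 64.0, 77.4, 92.4, 95.3 and 101 FPKM in CR mice at 5 months. At 15 months Pdia6 ranged from 50.1 to 60.6 FPKM in AL mice and from 66.5 to 94.2 FPKM in CR mice, and its averaged log2 fold change was 0.45 (limma adjusted p = 0.0101, SE 0.078). Pdia3 (chr2:121413902-121438687), the isomerase that acts with calreticulin and calnexin on glycoproteins, had 81.0, 84.0, 84.9, 87.2 and 98.3 FPKM in AL mice and 83.65, 102, 106, 114 and 116 FPKM in CR mice at 5 months. At 15 months Pdia3 ranged from 64.4 to 82.2 FPKM in AL mice and from 83.2 to 111 FPKM in CR mice, and its averaged log2 fold change was 0.32 (limma adjusted p = 0.0222, SE 0.061). All 3 isomerases were without overlap at 15 months. The other 6 members did not pass. P4hb, the most studied disulfide isomerase, had 38.4 to 55.9 FPKM and a log2 fold change of 0.15 (limma adjusted p = 0.219), and the proline isomerase Ppib had 32.0 to 50.8 FPKM and 0.11 (limma adjusted p = 0.567). The oxidases Ero1l (Ero1a, 14.3 to 23.2 FPKM) and Ero1lb (Ero1b, 5.76 to 9.74 FPKM), which return disulfide isomerases to their oxidised form, had 0.06 and 0.04. Txndc5 (21.2 to 34.4 FPKM) and Pdia5 (1.01 to 3.01 FPKM) had values below 0, at -0.10 and -0.19.

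Of the 8 genes of ER-associated degradation, 0 were called under CR, and in the averaged contrast 1 was below an unadjusted p of 0.05. That gene was Derl3, a Derlin of the retrotranslocation channel, with 1.08 to 3.61 FPKM, a log2 fold change of 0.58 (± 0.18 SE) and a limma adjusted p of 0.184. Its relatives Derl1 (23.8 to 38.9 FPKM) and Derl2 (8.67 to 11.6 FPKM) had log2 fold changes of 0.14 and 0.09. Herpud1 (26.2 to 38.1 FPKM), the ubiquitin ligase Syvn1 (15.9 to 21.3 FPKM) and its adaptor Sel1l (31.9 to 51.1 FPKM) had 0.10, 0.08 and 0.11. Edem1 (4.13 to 7.35 FPKM) and Os9 (33.6 to 49.65 FPKM), which recognise trimmed glycans on misfolded proteins, had -0.06 and 0.00. The median of the 8 was 0.09. The translocon genes Sec61a1 (25.0 to 32.2 FPKM) and Sec61b (33.0 to 58.7 FPKM), which form part of the channel into the ER, had 0.00 and 0.17, and neither passed.

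Transcripts of the sensors and of Xbp1 did not pass under CR. Xbp1 (chr11:5520641-5525993) had 32.1, 34.1, 38.5, 38.8 and 48.2 FPKM in AL mice and 38.3, 39.2, 50.1, 51.2 and 52.1 FPKM in CR mice at 5 months. At 15 months it ranged from 35.4 to 44.3 FPKM (median 40.7) in AL mice and from 38.5 to 59.0 FPKM (median 46.1) in CR mice. In each age 3 CR libraries were above all AL libraries, and the rest overlapped. The averaged log2 fold change of Xbp1 was 0.25 (± 0.085 SE, limma adjusted p = 0.241; exact permutation p = 0.0124). Ern1 (1.80 to 3.47 FPKM), Atf6 (9.20 to 20.6 FPKM) and Eif2ak3 (7.04 to 11.2 FPKM) had averaged log2 fold changes of -0.01, 0.00 and -0.05. For Atf6 the fitted differences were -0.22 at 5 months and 0.21 at 15 months, with an interaction of 0.44 (± 0.22 SE, limma adjusted p = 0.654).

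The 5 PERK branch targets did not pass in any contrast. Atf4 (chr15:80255184-80257545), the transcription factor of the branch, had 62.0, 62.4, 67.7, 68.4 and 70.6 FPKM in AL mice and 62.7, 67.8, 72.9, 74.2 and 74.9 FPKM in CR mice at 5 months. At 15 months Atf4 ranged from 56.2 to 70.7 FPKM in AL mice and from 56.7 to 77.9 FPKM in CR mice, and its averaged log2 fold change was 0.08 (limma adjusted p = 0.596, SE 0.058). ATF4 is controlled largely at translation, which these data do not measure. Ddit3 (chr10:127290793-127296291), which encodes CHOP, had 24.6, 29.1, 29.95, 31.0 and 31.5 FPKM in AL mice and 23.8, 27.0, 30.1, 34.8 and 35.0 FPKM in CR mice at 5 months. At 15 months Ddit3 ranged from 25.8 to 33.4 FPKM in AL mice and from 25.55 to 43.8 FPKM in CR mice, with an averaged log2 fold change of 0.08 (± 0.087 SE, limma adjusted p = 0.771). In both genes the CR range contained or nearly contained the AL range at 15 months.

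Chac1 (chr2:119351242-119354326), a glutathione-degrading enzyme induced by ATF4, had 4.03, 4.08, 4.41, 4.65 and 5.23 FPKM in AL mice and 3.67, 3.78, 3.80, 4.85 and 5.34 FPKM in CR mice at 5 months. At 15 months it ranged from 4.60 to 5.95 FPKM (median 5.00) in AL mice and from 2.33 to 5.36 FPKM (median 3.86) in CR mice, and 5 of 6 CR libraries were below the lowest AL library. Its log2 fold change at 15 months was -0.44 (± 0.15 SE), opposite in sign to the called chaperones, with an exact permutation p of 0.0173 and a limma adjusted p of 0.141. Trib3 (chr2:152337425-152344060), a pseudokinase induced by ATF4 and CHOP, was near the limit of the filter. It had 0.112, 0.143, 0.164, 0.242 and 0.272 FPKM in AL mice and 0.0816, 0.087, 0.146, 0.175 and 0.181 FPKM in CR mice at 5 months. At 15 months Trib3 ranged from 0.169 to 0.509 FPKM in AL mice and from 0.149 to 0.428 FPKM in CR mice, with an averaged log2 fold change of -0.30 (± 0.18 SE, limma adjusted p = 0.529). Ppp1r15a (chr7:45522917-45526268), the phosphatase subunit GADD34 that restores translation, had 5.75, 6.97, 7.55, 7.62 and 7.78 FPKM in AL mice and 6.30, 7.11, 7.20, 7.20 and 8.67 FPKM in CR mice at 5 months. At 15 months Ppp1r15a ranged from 6.72 to 8.79 FPKM in AL mice and from 6.87 to 9.04 FPKM in CR mice, and its averaged log2 fold change was -0.03 (limma adjusted p = 0.907, SE 0.069).

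**Figure D4:**
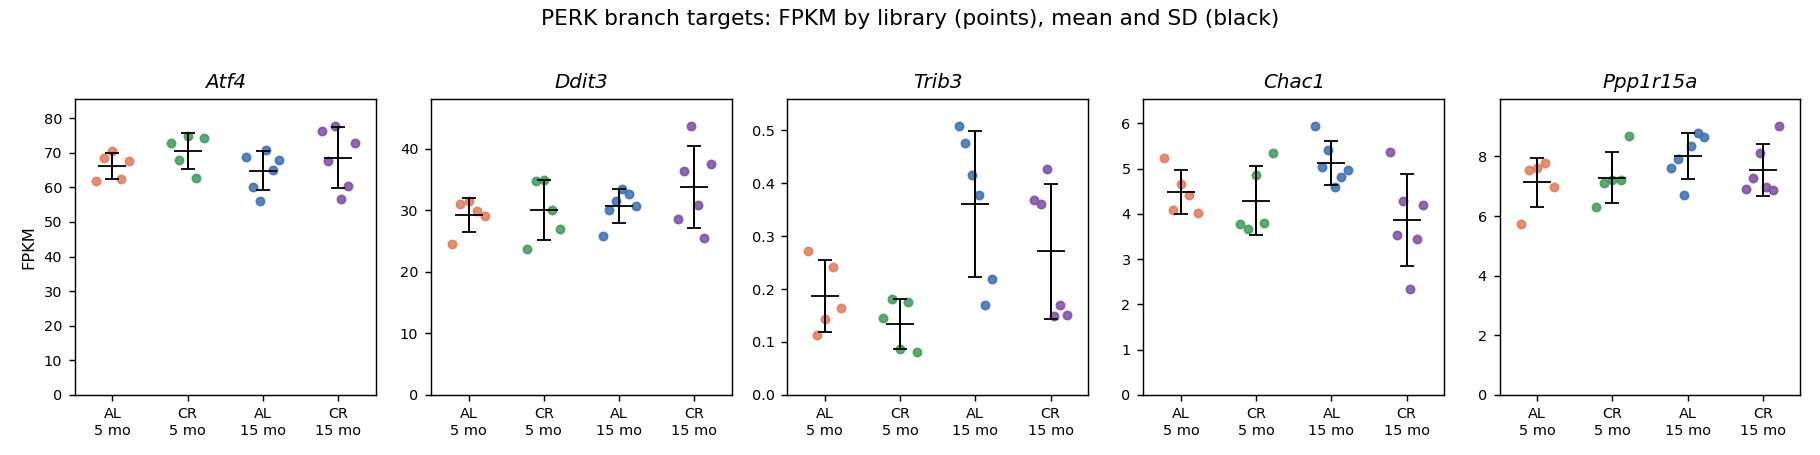
FPKM of the 5 PERK branch targets in each library (points) with the mean and SD (black), by diet at 5 months (5 mice per diet) and 15 months (6 mice per diet). AL and CR points overlap in every panel at both ages, and Trib3 stays below 0.51 FPKM throughout.

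Other genes of the same pathways were counted from lists. In the averaged CR contrast 0 of 26 other ER folding and glycan-processing genes, 0 of 19 other ER degradation genes, 0 of 21 other ER import and oligosaccharyl transferase genes and 0 of 24 other integrated stress response genes were called by limma. At an unadjusted p under 0.05 the higher and lower counts were 6 and 1, 2 and 1, 6 and 0, and 3 and 0, respectively, whereas 5.72% of all tested genes were higher and 6.34% lower at that threshold. The median log2 fold changes of these lists were 0.03, 0.03, 0.07 and 0.02. Of 20 cytosolic heat shock genes, which serve protein folding outside the ER, 5 (Hspa1b, Hspb1, Chordc1, Dnaja4 and Stip1) rose and 0 fell, with a median of 0.22. Over all tested genes 0.23% were called higher. At an unadjusted p under 0.05, 14 of the 20 were higher and 0 lower, beside 17 of the 34 folding, degradation and sensor genes. All 20 had values above 0. The authors had already reported Hspa1b and Dnaja4 as raised by CR in these mice, so their calls are not independent support. The inducible Hsp70 gene Hspa1b had a log2 fold change of 0.85 (± 0.16 SE, limma adjusted p = 0.0164), with 2.75 ± 0.802 FPKM in AL mice and 5.97 ± 1.43 FPKM in CR mice (SD, n = 6 each) at the later age. The small heat shock protein gene Hspb1 had 0.77 (± 0.17 SE, limma adjusted p = 0.0434), and the Hsp90 co-chaperone gene Chordc1 had 0.35 (± 0.066 SE, limma adjusted p = 0.0189).

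A part of the members also varied with Hspa5 between mice of the same group. Over the 22 libraries, deviations from the group means were correlated with those of Hspa5 for the 13838 genes whose mean level reached 1 FPKM. The 8 genes most like Hspa5 were all members: Dnajb11 (r = 0.876), Manf (0.866), Pdia6 (0.859), Pdia3 (0.848), Pdia4 (0.842), Hsp90b1 (0.815), Xbp1 (0.776) and Creld2 (0.768). Spearman's rho for these 8 ranged from 0.782 to 0.908. Without the 2 libraries in which Hspa5 lay farthest from the median, AL 5 months replicate 0 (0.36 above its group mean on the log2 scale) and CR 5 months replicate 0 (0.36 below), r ranged from 0.706 to 0.856. Hsp90b1, Xbp1 and Creld2 were not called under CR but varied with Hspa5 within groups, and Canx (r = 0.741), Calr (0.711) and Sdf2l1 (0.677) were at ranks 9, 13 and 16. Atf4 (0.051), Ppp1r15a (0.046) and Chac1 (0.028) were far from Hspa5 in this respect, whereas Ddit3 had an r of 0.503, at rank 182. The points share the library and its scaling, so these correlations are descriptions without a test.

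The promoter element and the CR difference were set side by side. The 10 members with an ERSE had a median averaged log2 fold change of 0.32, with all 10 above 0 and 4 called, and the 24 members with a window but no ERSE had a median of 0.08, with 16 above 0 and 4 called. These 24 include the 5 PERK branch targets, which had a median of -0.03, with 2 above 0 and 0 called. The difference between the sets was not tested. The other 10 tested genes with an ERSE in their window had a median of 0.00, with 5 above 0 and 0 called. Among members with an ERSE, the lowest value was 0.04 (Ero1lb) and the highest 0.63 (Hspa5). Of the 10 called genes, Hspa5, Calr, Dnajc3 and Pdia6 hold the element, Dnajb11 holds the shorter form, and Hyou1 and Manf had no window to search.

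Age was examined next in mice of the same diet. In AL mice 5 of the 34 genes were called between 15 and 5 months, against 20.6% of all tested genes, which is a larger share than that of the members. The median log2 fold change of the 34 was -0.14, beside 0.00 over all tested genes. By limma p before adjustment, with a limit of 0.05, 11 of them were lower and 5 higher. Over all tested genes these shares were 17.2% and 18.0%. In 6 of the 34 every AL library at 15 months lay below every one at 5 months, and in 2 above. The share of all tested genes without overlap was not counted for age, so nothing is drawn from these 2 counts. Of the 5 called genes, Sec61b, Derl1, Pdia3 and Sdf2l1 fell and Ero1lb rose. The count of 5 dropped to 1 when AL replicate 1 at 5 months was omitted, and was 11 when CR replicate 2 at 15 months was omitted. This split also depended on scaling. With libraries at a common median 9 of the 34 genes were lower and 0 higher, after quantile normalization 3 were lower and 1 higher, and without the microRNA and small nucleolar RNA rows 1 (Sec61b) was lower and 6 were higher, along with 2 PERK branch targets, while the median of all genes moved to 0.11 on the log2 scale from 0.00. Sec61b (chr4:47474661-47483233), a subunit of the translocon, had the smallest p of the members. Its levels in AL mice were 40.8, 45.0, 49.4, 52.1 and 54.5 FPKM at 5 months and ranged from 33.0 to 38.8 FPKM at 15 months, without overlap. In CR mice Sec61b had 45.2, 46.6, 54.9, 55.2 and 58.7 FPKM at 5 months and 37.7 to 52.4 FPKM at 15 months. The log2 fold change with age was -0.45 (± 0.094 SE, limma adjusted p = 0.00256) in AL mice and -0.34 (± 0.094 SE, limma adjusted p = 0.0522) in CR mice. Sdf2l1 fell by 0.62 (± 0.2 SE, limma adjusted p = 0.0354), Derl1 by 0.32 (± 0.098 SE, limma adjusted p = 0.0252) and Pdia3 by 0.27 (± 0.086 SE, limma adjusted p = 0.031) on the log2 scale, and Ero1lb rose by 0.33 (± 0.12 SE, limma adjusted p = 0.0473). Hspa5 had -0.23 (± 0.12 SE, limma adjusted p = 0.16) and Calr -0.28 (± 0.1 SE, limma adjusted p = 0.0602). In CR mice 0 of the 39 members were called with age by limma (3.36% of all tested genes were). At an unadjusted p under 0.05 there were 3, namely Sec61b on the lower side and Pdia5 and Trib3 on the higher side. The share of all tested genes at that threshold was not counted, so nothing is drawn from these 3.

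Trib3 had the largest fitted age difference among the members, with 0.66 (± 0.26 SE, limma adjusted p = 0.0748) in AL mice and 0.62 (± 0.26 SE, limma adjusted p = 0.204) in CR mice. The other PERK branch targets ranged from -0.03 (Atf4) to 0.19 (Chac1) in AL mice and from -0.18 (Chac1) to 0.16 (Ddit3) in CR mice. Ern1 and Eif2ak3 had 0.33 and 0.24 in AL mice, and Atf6 had -0.36, and none of these passed. The age comparison in AL mice shares its 15-month libraries with the CR comparison at that age. For Sdf2l1 the 2 values were -0.62 with age and 0.96 with CR, and for Pdia3 they were -0.27 and 0.38.

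**Figure D5:**
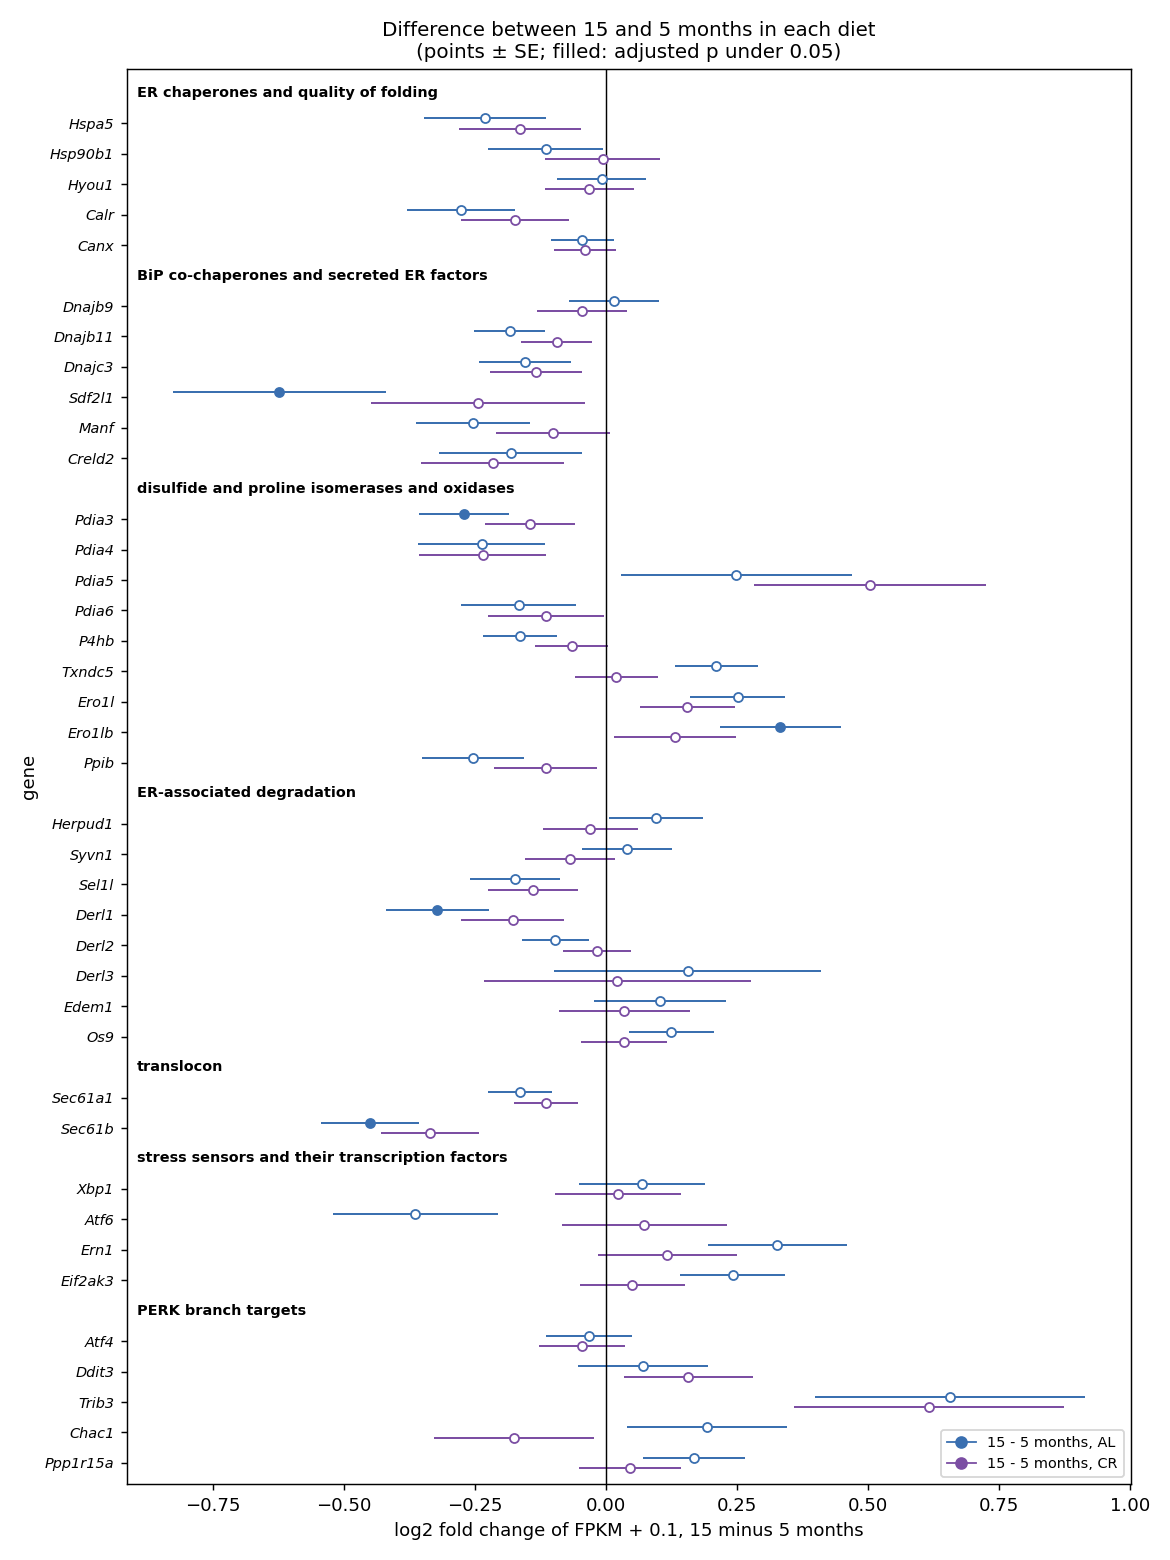
Fitted log2 fold change of FPKM + 0.1 between 15 and 5 months in AL mice (blue) and CR mice (purple) for the 39 members in order of role, with SE bars; filled points have an adjusted p under 0.05. The filled points are Sec61b, Derl1, Pdia3 and Sdf2l1 left of 0 and Ero1lb right of 0, all in AL mice.

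Levels of marker genes of brain regions and cell types differed between libraries. In bulk tissue fewer cells of a type and less RNA per cell cannot be told apart. All 8 CA1 pyramidal neuron markers were detected, with a summed level of 101 to 517 FPKM over all libraries. At 15 months, the 10 neocortex and subiculum markers summed to 106 to 172 FPKM in AL mice and 63.8 to 219.5 FPKM in CR mice, and the CA1 markers to 197 to 291 FPKM and 101 to 449.5 FPKM. Of these lists 0 genes were called under CR at 15 months, and at an unadjusted p under 0.05, which 8.26% of all tested genes passed on the higher and 8.83% on the lower side, 2 of 10 cortical markers were lower and 2 of 8 CA1 markers higher. The 7 dentate granule cell markers were above 0 under CR at 15 months in 7 of 7 cases, with a median log2 fold change of 0.91, 2 of them at an unadjusted p under 0.05 and 0 called, and summed to 14.7 to 46.6 FPKM in AL mice and 13.5 to 137.9 FPKM in CR mice. In the averaged CR contrast 5 of 7 endothelium markers were lower at an unadjusted p under 0.05 (median -0.27) and 0 were called. The part of these cells in the members' differences was not tested. A region score (mean log2 level of the neocortex and subiculum list minus that of the CA1 list) ranged from -0.87 to 0.40 in AL mice and from -3.18 to -0.21 in CR mice at 15 months, and from -3.36 to -2.04 and from -3.33 to -2.46 at 5 months. With this score as a covariate, the CR log2 fold changes at 15 months were 0.71 for Hspa5 (limma adjusted p = 0.0553), 0.58 for Pdia4 and Manf (0.185 and 0.135) and 0.96 for Sdf2l1 (0.198), and 0 of the 34 genes passed, along with 5 of all tested genes in place of 126. In the averaged contrast 5 members passed with it, Hspa5, Pdia4, Manf, Pdia6 and Pdia3, along with 25 genes in all in place of 66.

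With age in AL mice, 5 of 8 CA1 markers were called lower. Of 10 neocortex and subiculum markers 6 were called higher and 1 lower, and of 14 choroid plexus markers 6 were called lower. Of 8 oligodendrocyte markers 8 were below 0 with age in AL mice (median -0.82), 6 of them at an unadjusted p under 0.05, and 1 was called. Of 7 dentate granule cell markers 2 were called lower (median -1.13), and of 7 microglia markers 7 were below 0 (median -0.33) and 1 was called lower. Over all tested genes 20.6% were called with age in AL mice, in either direction. At an unadjusted p under 0.05, 17.2% of all tested genes were lower and 18.0% higher. With the region score as a covariate 0 of the 34 members and 0 of all genes, in place of 3502, were called with age in AL mice. In AL mice this score did not overlap between the ages (-3.36 to -2.04 at 5 months, -0.87 to 0.40 at 15 months). It is also built from CA1 and cortical markers that themselves differed with age. Score and age therefore cannot be told apart in this fit, and a loss of calls does not show their source. The log2 fold changes then were -0.38 for Pdia3 (± 0.14 SE), -0.63 for Sdf2l1 (± 0.34 SE), -0.26 for Sec61b (± 0.15 SE), -0.16 for Derl1 (± 0.16 SE) and 0.00 for Ero1lb (± 0.17 SE). Thus Pdia3 and Sdf2l1 were as large as without the score or larger, with wider SE, and the other 3 were smaller. The 14 choroid plexus markers summed to 42.6 to 371 FPKM in AL mice and 138 to 2526 FPKM in CR mice at 5 months, with replicates 3 and 4 of the CR mice the highest on the marker score. Of the 14 markers 7 were higher under CR at 5 months at an unadjusted p under 0.05, and 0 were called. Without both libraries the log2 fold changes at 5 months were 0.60 for Hspa5, 0.50 for Pdia4, 0.41 for Manf and 0.59 for Sdf2l1, and with the choroid plexus score as a covariate they were 0.65, 0.54, 0.48 and 0.71. None of the marker genes of the 9 lists that were in the matrix was at 0 in every library. Whether tissue composition has a part in the age differences of the members was not tested further.

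Taken library by library, the median difference of the 34 genes from the mean of AL mice at 5 months was -0.10 to 0.16 on the log2 scale in AL mice and 0.05 to 0.25 in CR mice at 5 months, and -0.20 to -0.04 in AL mice and 0.05 to 0.27 in CR mice at 15 months. Within AL mice at 5 months replicate 0 was the highest, and within CR mice at 5 months replicate 0 was the lowest, and these are the libraries in which the groups met for most called genes. In this median the groups did not meet at 15 months. It is a description of the libraries and was given no test.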

How the data were processed

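CA1 mRNA from 22 mice was sequenced by the authors (bcl2fastq), aligned to mm10 with TopHat, freed of likely PCR duplicates with Picard and quantified with Cufflinks, with corrections for fragment bias and multi-mapped reads. The deposited values are FPKM per gene as the authors made them, 1 column per mouse; the annotation release is not given in the sources used here, and the depth behind single values is unknown, since no whole reads could be recovered (at most 0.538% of low values shared a common ratio). Read duplicates and multi-mapped reads can change levels of highly expressed genes and of near-identical copies such as Hspa1b.

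The 16978 genes whose mean level reached 0.1 FPKM were fitted as log2(FPKM + 0.1), all 4 groups in 1 model, with limma 3.58.1 in R 4.3.3 (eBayes with trend, two-sided), and called at a Benjamini-Hochberg adjusted p under 0.05 over all tested genes. Log2 fold changes are differences between fitted group means, given ± standard error (SE); a pseudocount of 0.1 understates it for low genes such as Trib3. The fit was tested on simulated data with 200 of 16978 genes changed 2-fold. Of these the simulated AL age contrast recovered 76% (4 false calls), the 5-month CR contrast 79% (12 false calls) and the 15-month CR contrast 77.5% (12 false calls). The simulation drew each gene independently, without shifts shared by the genes of a library. The largest fitted rise of a member under CR at 5 months was 1.57-fold (Derl3), and recovery of differences below 2-fold was not simulated. Exact two-sided permutation tests relabelled libraries, with a smallest possible p of 0.00794 at 5 months, 0.00216 at 15 months and 8.59e-06 for the average. Tables and figures used Python 3.11.15, pandas 2.3.3, numpy 2.4.6, scipy 1.17.1 and matplotlib 3.10.9.

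The members and lists were chosen with earlier results of these data known. Every member is named, and values per library are given for members called under CR, the PERK branch targets, Xbp1 and the member with the smallest adjusted p for age in AL mice. From the other lists, called genes are named, at most 3 per direction. Windows, coordinates and gene names are from RefSeq (GRCm38.p6), and all 39 members matched. The omission of CR 5 months replicates 3 and 4 together was chosen after seeing the data. Of the 20 other ER degradation genes 1 was not analysed here.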

Additional observations from a re-analysis of the deposited data

Results flagged for a closer look

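In 14 of 156 groups (39 members in 4 groups), 1 library stood apart from the rest by Dixon's test at its 95% critical value, which chance alone exceeds in about 1 in 20 groups. In AL mice at 5 months replicate 0 was high for Dnajb9 (30.63 FPKM, others 24.39 to 24.89), Ero1lb (8.411 FPKM, others 5.759 to 6.25) and Derl3 (2.323 FPKM, others 1.078 to 1.346), and replicate 1 was low for Ern1 (1.802 FPKM, others 2.354 to 2.574). In CR mice at 5 months replicate 0 was low for P4hb (44.61 FPKM, others 53.43 to 55.45) and Os9 (34.64 FPKM, others 42.99 to 45.51), replicate 3 was high for Pdia5 (1.596 FPKM, others 1.05 to 1.181), and replicate 4 was high for Txndc5 (28.24 FPKM, others 24.29 to 25.25) and Atf6 (17.76 FPKM, others 11.5 to 12.96). In AL mice at 15 months replicate 4 was high for Pdia5 (3.007 FPKM, others 1.357 to 1.942), replicate 2 was high for Derl1 (32.16 FPKM, others 23.82 to 26.79), and replicate 0 was low for Os9 (39.12 FPKM, others 44.0 to 46.31). In CR mice at 15 months replicate 1 was high for Sec61a1 (32.16 FPKM, others 25.45 to 27.45) and replicate 2 for Sec61b (52.37 FPKM, others 37.66 to 43.04). None of the 10 members called in the averaged CR contrast was among these, and no cause was tested.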

How the results depend on the processing

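No log2 fold change of a called member changed sign under any of the 13 alternative settings or the 22 omissions of 1 library. In the averaged CR contrast Hspa5, Manf, Pdia4 and Pdia6 were called in all 34 alternatives, Hyou1 and Calr in 33, Sdf2l1 in 32, Pdia3 in 29, Dnajb11 in 19 and Dnajc3 in 9. At 15 months Hspa5 was called in 33 of 35, Manf in 30, Pdia4 in 26, Sdf2l1 in 25, Pdia3 and Pdia6 in 20, Calr in 18 and Dnajb11 in 8.

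Counts of called members moved as follows, and the cause was not tested. At 15 months, CR gave 0 of the 34 genes when its groups were fitted alone, 0 with the region score as a covariate and 4 without CR 5 months replicates 3 and 4, against 8 in the text; leaving out 1 library gave 1 (CR 15 months replicate 3, AL 15 months replicate 0 or AL 15 months replicate 4) to 12 (CR 15 months replicate 0). In the average the region score gave 5, against 10, and leaving out 1 library gave 6 (AL 5 months replicate 3) to 11. For age in AL mice the count of 5 became 9 with libraries at a common median, 13 with its groups alone and 0 with the region score, and 1 (AL 5 months replicate 1) to 11 (CR 15 months replicate 2) with 1 library left out. For age in CR mice it became 1 with quantile normalization or without small RNA rows, and 0 to 1 with 1 library left out. PERK branch targets called for age in AL mice became 2 without small RNA rows, and 0 to 1 with 1 library left out, as for CR at 15 months.

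Over all genes, CR at 15 months gave 77 with quantile normalization, 217 without small RNA rows, 0 with its groups alone, 5 with the region score and 59 without CR 5 months replicates 3 and 4, against 126, and 15 to 732 with 1 library left out. The average gave 39 without small RNA rows, 25 with the region score and 40 without CR 5 months replicates 3 and 4, against 66, and 29 to 72. Age in AL mice gave 2147 with the choroid plexus score and 0 with the region score, against 3502, and 2383 to 3919. Age in CR mice gave 304 at a mean FPKM of at least 1, 324 with its groups alone, 0 with the choroid plexus score, 100 with the region score and 224 without CR 5 months replicates 3 and 4, against 570, and 332 to 774. CR at 5 months gave 1 without the intensity trend and 0 to 1 with 1 library left out, as did the interaction.

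The labels do not say whether same-numbered mice belong together, and the main fit treated them as unpaired. The deviations of 31 same-numbered pairs from their group means had correlations that ranged from -0.139 to 0.163, and 2 were above 0.1. Such correlations cannot settle whether these mice were handled together. With the replicate block the averaged contrast gave 10 members and 118 genes, CR at 15 months 9 and 323, age in AL mice 9, plus 1 PERK branch target, and age in CR mice 1.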
